A study of Mus musculus with 24 samples.

Results

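GW3965, a synthetic agonist of the liver X receptors (LXRs), was compared with vehicle in macrophages that lack both receptors, to ask which transcripts respond to the compound without its target. The comparison used 6 of the 24 libraries of the series, chosen by genotype and treatment: the GW3965 and vehicle libraries of 3 mice labelled DKO, a double knockout of LXRα and LXRβ. Each mouse gave 1 vehicle and 1 GW3965 library, so GW3965 was compared with vehicle within each mouse. All cells were bone-marrow-derived macrophages from C57BL/6J mice aged 8 to 12 weeks, differentiated in medium conditioned by L929 fibroblasts that was renewed after 4 days, and treated from day 5 for 17 hours with vehicle or with 1 µM GW3965. The 6 libraries of 3 LXR-positive mice, with receptors intact and under the same treatments, were read beside them for the response with the receptors present. Some values of the same DKO mice under other treatments are also given. These were 100 ng/ml of the TLR4 ligand Kdo2-lipid A for 17 hours, and 50 µg/ml acetylated LDL, without a stated duration. An alternative fit used all 24 libraries, including the LXR-positive ones under these treatments. The solvent of the vehicle, the knockout alleles and whether the 2 genotypes were littermates were not stated in the labels.

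LXRα (Nr1h3) and LXRβ (Nr1h2) are nuclear receptors that bind oxidized derivatives of cholesterol and pair with the retinoid X receptor on DNA. In macrophages they are known for switching on genes of cholesterol export (Abca1, Abcg1), of lipoprotein receptor turnover (Mylip) and of fatty acid synthesis, partly through the transcription factor Srebf1. A small molecule can also reach other ligand sensors, such as the pregnane X receptor, the farnesoid X receptor, the RORs or the peroxisome proliferator-activated receptors, or can set off stress responses, and a receptor-null cell is the usual control for such effects.

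The DNA element that the LXR pair is known to bind consists of 2 direct repeats separated by 4 bases. In the letters searched here, on both strands, it is GGTNA and GGTCA with 5 bases between the end of the first and the start of the second run, which is the same spacing counted over shorter repeats. Of 27025 genes with a RefSeq promoter window (GRCm38.p6, 250 bases before to 50 after the start), 61 held it, or 0.226%. Of the 44 genes that rose with GW3965 in LXR-positive cells, 29 had a window and 4 of these held it, namely Abca1, Acsl3, Fasn and Srebf1 (13.8%). Such a match describes the letters of the window and is not evidence of binding. The 4 stretches are shown because they hold the letters that the missing receptors are known to bind, in genes whose response was then followed in DKO cells. Each is written 5′ to 3′ on the gene's own strand, and capitals mark the match, which in all 4 lies on the opposite strand and so reads as the reverse complement.
Abca1: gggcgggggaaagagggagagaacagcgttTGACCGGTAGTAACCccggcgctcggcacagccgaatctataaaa
Acsl3: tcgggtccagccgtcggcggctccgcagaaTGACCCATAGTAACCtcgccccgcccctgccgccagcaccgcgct
Fasn: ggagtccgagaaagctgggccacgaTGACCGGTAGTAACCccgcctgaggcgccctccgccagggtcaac
Srebf1: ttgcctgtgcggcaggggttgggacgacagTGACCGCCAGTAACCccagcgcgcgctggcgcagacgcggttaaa
The Abca1 stretch is chr4:53159918-53159992 on the minus strand, with the match from position -67 to -53 relative to the start. The Acsl3 stretch is chr1:78657683-78657757 on the plus strand, with the match from -112 to -98. The Fasn stretch is chr11:120824728-120824797 (minus strand, match from -225 to -211), and the Srebf1 stretch is chr11:60210609-60210683 (minus strand, match from -182 to -168). In DKO cells the 4 genes had log2 fold changes with GW3965 of 0.10 (Abca1), 0.0030 (Acsl3), 0.017 (Fasn) and 0.15 (Srebf1), against 2.15, 1.93, 2.88 and 2.89 in LXR-positive cells.

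Values are the authors' normalized counts, in which each library is scaled by its own size factor. The DKO vehicle libraries held 20659071 to 27189081 reads and the DKO GW3965 libraries 9705391 to 17671480, so each GW3965 library was shallower than every vehicle library. LXR-positive libraries held 10540385 to 17348717 reads with vehicle and 6448579 to 8793205 with GW3965. Reads from the mitochondrial chromosome made up 14.0% to 16.6% with vehicle and 12.6% to 14.7% with GW3965. Defining macrophage genes were abundant in all 6 libraries, with Csf1r, the receptor for the growth factor that sustains macrophages, at 20155, 24499.6 and 30261 with vehicle and 26189, 23462 and 29348 with GW3965. Gene-level counts did not check the knockout of Nr1h3: it read 187, 176 and 179 with vehicle and 272, 123 and 184 with GW3965 in DKO cells and 114, 176 and 114 with vehicle and 128, 159 and 140.0 with GW3965 in LXR-positive cells. Nr1h2 read 312, 275 and 399 with vehicle and 290.1, 338 and 398 with GW3965 in DKO cells and 523, 569.7 and 654 with vehicle and 468, 488 and 656 with GW3965 in LXR-positive cells, with no overlap between genotypes. A gene count also covers exons outside a deletion, and the labels do not say which exons were removed.

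No gene passed limma's test for GW3965 against vehicle in DKO macrophages. Of 16116 genes tested with limma (adjusted p under 0.05, the mouse as a block), 0 passed (0%), against 52 in LXR-positive cells (0.323%), and the smallest adjusted p in DKO cells was 0.17. At an unadjusted p under 0.05, 1300 genes stood apart, 701 higher (4.35%) and 599 lower (3.72%). The quasi-likelihood test of edgeR on the recovered reads also called 0 genes, with 1418 at an unadjusted p under 0.05, and DESeq2 on the same reads called 67 of the 11741 genes to which it gave an adjusted p (0.571%), which are described further on.

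The precision of the 3 pairs limits what this count covers. The 95% interval of the DKO response lay within 1 log2 unit of 0, a 2-fold change in either direction, for 11514 of 16116 genes (71.4%). Among the 8973 genes with a mean of at least 100 normalized counts over the 6 DKO libraries it did so for 8621 (96.1%), with a median interval of 0.31 to either side. Changes smaller than a gene's interval could not be told from 0 with 3 mice, even before adjustment. The intervals are unadjusted, so they are not the detection limit of the adjusted test. Larger changes also went uncalled, such as 2.64 for Grip2 (limma adjusted p = 0.17). Across these 8973 genes the within-mouse log2 ratios had SDs of 0.517, 0.281 and 0.411 in DKO mice 1, 2 and 3, so mouse 2 had the quietest pair.

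No gene of cholesterol export passed the test in DKO cells. Abca1, the transporter that loads cholesterol onto apolipoprotein A-I, read 14347, 16732 and 14223 with vehicle and 16446, 17074 and 14916 with GW3965 in DKO cells, with overlapping groups. Its log2 fold change was 0.10 ± 0.089 (SE), with a 95% interval of -0.10 to 0.30 and a limma adjusted p of 0.83. In LXR-positive cells the same gene read 9154, 8698 and 8200.1 with vehicle and 37655, 42061 and 35962 with GW3965, a log2 fold change of 2.15 (adjusted p = 1.2e-05). Both DKO groups thus lay above the LXR-positive vehicle libraries and below the LXR-positive GW3965 libraries. That genotype difference without agonist is given as values only.
Abcg1, the transporter that hands sterol to mature lipoprotein particles, read 3007, 3341 and 2489 with vehicle and 3182, 2983 and 2827 with GW3965 in DKO cells. The groups overlapped, and the log2 fold change was 0.034 ± 0.091 (SE), against 2.71 in LXR-positive cells. Mylip, a ubiquitin ligase of lipoprotein uptake, read 758, 716 and 717 with vehicle and 866, 759.7 and 757 with GW3965. All 3 mice were slightly higher, by log2 ratios of 0.19, 0.086 and 0.079, which did not pass the test (adjusted p = 0.80).

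The lipogenic desaturases Scd1 and Scd2 had the largest differences between genotypes among the genes called in that test. Scd2, a desaturase that makes monounsaturated fatty acids, read 1618, 2646 and 1344 with vehicle and 1509, 2762 and 1688 with GW3965 in DKO cells, a log2 fold change of 0.10 ± 0.10 (SE). In LXR-positive cells it went from 238, 245 and 232 to 12476, 12882 and 11701, a log2 fold change of 5.69. Scd1, its close relative, read 111, 164 and 32.5 with vehicle and 114, 191 and 53.2 with GW3965 in DKO cells, with mouse 3 lowest in both groups. The spread between mice in DKO cells was larger than the difference between treatments within any mouse.
Srebf1, a master regulator of lipogenic genes, read 386, 591 and 491 with vehicle and 521, 560.0 and 531 with GW3965 (log2 fold change 0.15 ± 0.13 (SE), 95% interval -0.14 to 0.45). Fasn, the fatty acid synthase, read 346, 680.1 and 583 with vehicle and 519, 629 and 436 with GW3965, with mouse 1 higher and mice 2 and 3 lower. Acaca, which makes malonyl-CoA for that synthase, read 763, 793 and 697 with vehicle and 802, 832 and 647 with GW3965 (log2 fold change 0.011). None of these 3 genes passed the test in DKO cells.

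**Figure D1:**
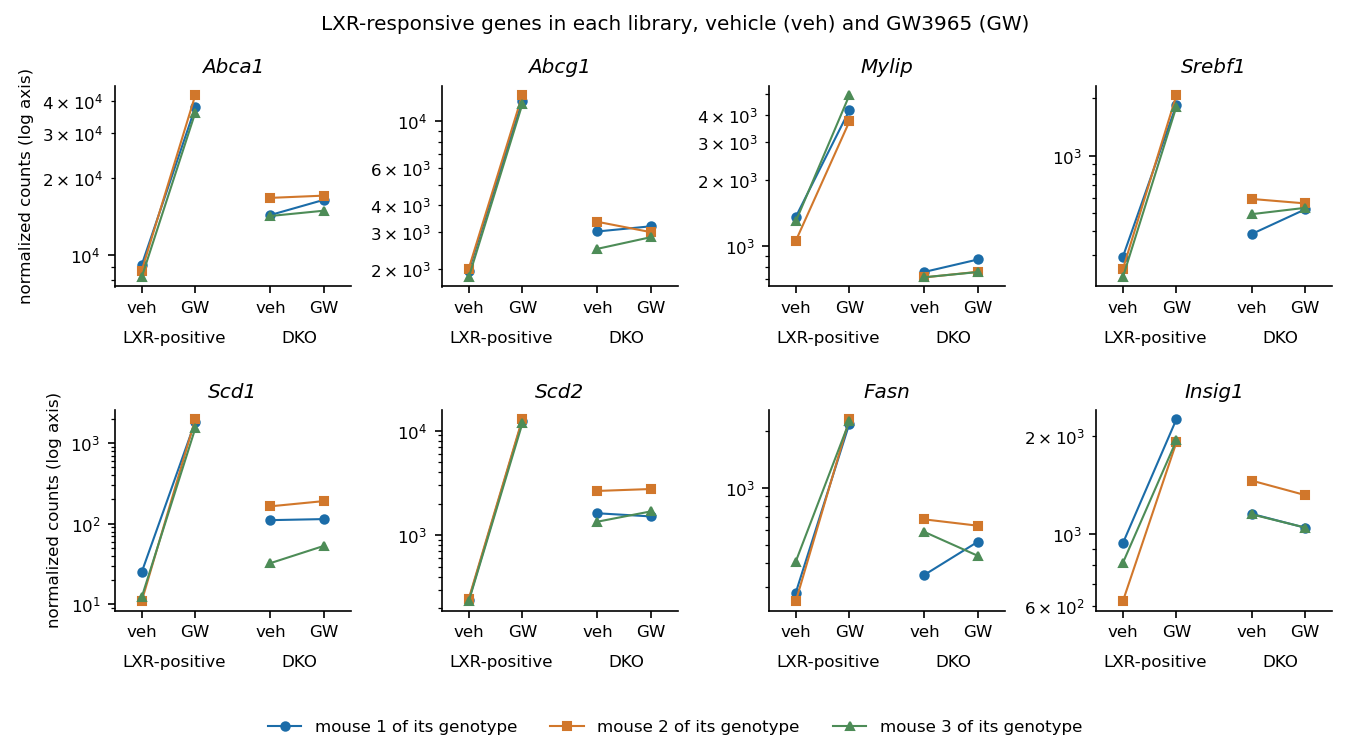
Normalized counts (log axis) of 8 LXR-responsive genes in the 12 vehicle and GW3965 libraries, with a line joining the libraries of 1 mouse and mouse numbers counted within each genotype. Lines climb in every LXR-positive mouse and are flatter in the DKO mice, as for Abca1 at 14347 with vehicle and 16446 with GW3965 in DKO mouse 1.

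Over the whole list of 20 LXR target genes, 18 were tested, since Abcg5 and Abcg8, the sterol exporters of gut and liver, had 2 and 10 reads in the 6 DKO libraries together. The list's median log2 fold change was 0.058 in DKO cells, against 0.0020 over all genes tested, and 1.41 in LXR-positive cells. In DKO cells 16 of the 18 lay above 0 and 2 below. The list's median was 0.15, -0.071 and 0.078 within DKO mice 1, 2 and 3. Of the 18, 0 were called in DKO cells and 11 in LXR-positive cells. Lpcat3, which remodels membrane phospholipids, was the single member at an unadjusted p under 0.05 in DKO cells: it read 201, 299.7 and 282 with vehicle and 312, 395 and 298 with GW3965, a log2 fold change of 0.37 ± 0.13 (SE) (adjusted p = 0.58). Mouse 3 differed by a log2 ratio of 0.077, and the groups overlapped.
Of 15 tested genes of fatty acid synthesis the median was 0.10 in DKO and 1.12 in LXR-positive cells, with 0 and 9 called. In DKO cells 13 of the 15 lay above 0 and 2 below, with medians of 0.11, 0.068 and 0.22 within mice 1, 2 and 3. Of 24 tested SREBP2 targets and cholesterol synthesis genes the median was -0.013 in DKO and 0.70 in LXR-positive cells, with 0 and 5 called. In DKO cells 11 of the 24 lay above 0 and 13 below. Insig1, the sterol-sensing anchor of the SREBPs, read 1150.3, 1455 and 1147 with vehicle and 1043, 1313 and 1044 with GW3965 in DKO cells, lower in all 3 mice by log2 ratios of -0.14, -0.15 and -0.14.

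All 52 genes called in LXR-positive cells were followed into DKO cells. Among the 44 that rose, the median log2 fold change was 1.38 in LXR-positive cells and 0.027 in DKO cells, where 28 were above 0 and 16 below. Their DKO values ran from -0.31 (Utp14b) to 0.49 (Cd38). For 43 of the 44 the DKO 95% interval lay within 1 log2 unit of 0 and for 32 within 0.5, the exception at 1 unit being Scd4. In all 44 the DKO interval lay wholly apart from the LXR-positive one. These genes were selected for a large LXR-positive response, so the gap between genotypes is a description.
Cd38, an enzyme that consumes NAD, read 93.8, 195 and 89.7 with vehicle and 149, 187 and 166 with GW3965, higher in mice 1 and 3 and slightly lower in mouse 2. Tmem86a, a lysoplasmalogenase, read 388, 468 and 441 with vehicle and 645, 564 and 524 with GW3965, with no overlap between groups (log2 fold change 0.42 ± 0.14 (SE), unadjusted p = 0.018). Mid1ip1, a regulator of acetyl-CoA carboxylase, is the other gene of the 44 besides these 2 and Lpcat3 at an unadjusted p under 0.05 (log2 fold change 0.32). That made 4 of 44, all higher, against the 4.35% of all genes given above.

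Among the 8 genes that fell in LXR-positive cells, the median was -1.14 there and -0.093 in DKO cells. Cx3cr1, the fractalkine receptor of resident macrophages, read 975, 804 and 475 with vehicle and 645, 719 and 414 with GW3965 in DKO cells and 1285, 1514 and 725 with vehicle and 599.8, 782 and 454 with GW3965 in LXR-positive cells. It was lower in all 3 DKO mice, by log2 ratios of -0.60, -0.16 and -0.20, with overlapping groups (unadjusted p = 0.033, adjusted p = 0.60). The test of the difference between genotypes gave an adjusted p of 0.58 for this gene, so its DKO and LXR-positive responses were not separated. Gm17383 went the other way, with 21.3, 24.3 and 45.5 with vehicle and 104, 157 and 57 with GW3965 in DKO cells and 0 in all 3 LXR-positive GW3965 libraries. Its exons lie wholly within those of AC157548.1 on the opposite strand, and whether the counting used strand was not stated in the labels, so its count is uncertain. Its call in the test between genotypes was lost in 13 alternative settings.

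**Figure D2:**
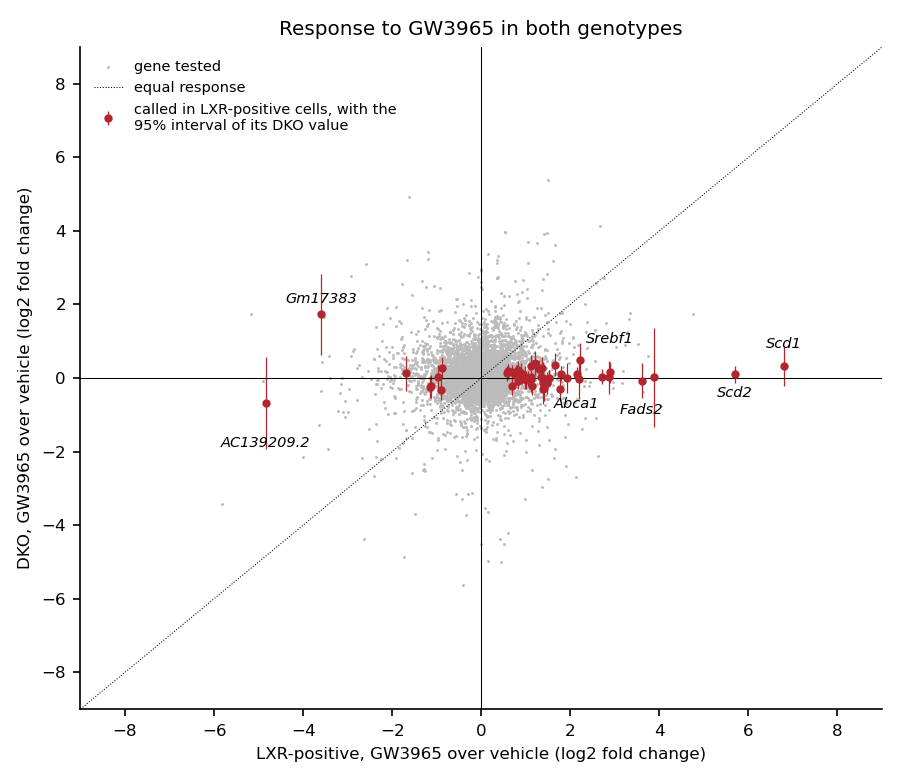
Log2 fold change with GW3965 in LXR-positive cells (x axis) and DKO cells (y axis) for 16116 genes, with the 52 genes called in LXR-positive cells in red and their 95% intervals in DKO cells. The red points run along the horizontal axis, out to Scd1 at 6.79 in LXR-positive and 0.32 in DKO cells, and away from the dotted line of equal response.

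A direct test of the difference between genotypes called 19 of 16116 genes (0.118%), with a weaker response in DKO cells for 18 and a higher one for 1. All 19 were among the 52 called in LXR-positive cells. Besides the genes above they included Fads2, a desaturase of polyunsaturated fatty acids, with a difference of -3.68 ± 0.29 (SE) (adjusted p = 0.0017), and Acsl4, which activates arachidonate (-1.61, adjusted p = 0.0023). Arl4c, a small GTPase, differed by -1.35 (adjusted p = 0.024), and Pank1, a pantothenate kinase of coenzyme A synthesis, by -1.69 (adjusted p = 0.040). The call was lost in 4 alternative settings for Arl4c, in 7 for Pank1, in which leaving out any 1 mouse was enough, and in 1 for Fads2. According to the authors' deposited table, 39 of the genes tested here passed an adjusted p under 0.05 for this contrast, 18 of them among the 19, all with the same sign. The authors' deposited table gives -5.61 for Scd2 and -2.05 for Abca1.

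Among abundant genes, those nearest to a limma call in DKO cells included none of the listed LXR targets. They are the 8 higher and 8 lower genes of smallest p with a mean of at least 100, so their direction and rank come from the same test and are a description. Adjusted p-values in limma ran from 0.17 to 0.27 for the 8 higher genes and from 0.28 to 0.44 for the 8 lower. DESeq2 called all 8 higher and 7 of the 8 lower genes, the exception being Zfp971. Grip2, a scaffold protein best known from synapses, read 32.9, 56.4 and 25.7 with vehicle and 212, 514 and 113 with GW3965, a log2 fold change of 2.64 ± 0.33 (SE) with a 95% interval of 1.89 to 3.39. Every GW3965 library exceeded every vehicle library. Anapc16, a subunit of the anaphase-promoting complex, read 497, 457 and 467 with vehicle and 775, 737 and 829.7 with GW3965. Emc1, a subunit of the membrane protein insertase of the endoplasmic reticulum, read 752, 824 and 645 with vehicle and 1194, 1235 and 1255 with GW3965. Both sets of groups were also apart, and tight, with within-mouse log2 ratios of 0.64, 0.69 and 0.83 for Anapc16 and 0.67, 0.58 and 0.96 for Emc1. Emc1 shares 29.3% of its exon bases with a gene on the opposite strand, and 4930404N11Rik, the fourth of the 8 without overlap between groups, shares 67.3%. Over all genes tested, 6.45% had 3 GW3965 values above all 3 vehicle values and 7.16% had them below.

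Of the other 4 higher genes, 3 are described here, and they encode matrix or matrix-linked proteins. Col5a2, a fibrillar collagen chain, read 178, 297 and 16.7 with vehicle and 782, 1037 and 181 with GW3965, a log2 fold change of 2.43 ± 0.31 (SE). Ctgf, a matricellular growth factor, read 134, 236 and 36.5 with vehicle and 368, 625 and 139 with GW3965. Lox, the enzyme that crosslinks collagen, read 334, 506 and 71.7 with vehicle and 620.0, 923 and 179 with GW3965. In these 3 genes mouse 3 was far lower than mice 1 and 2 in both groups, and the groups overlapped, although each mouse had the higher value with GW3965. The stromal markers described further on had the same low mouse 3, and their part in these values was not tested.
Hpgd, which inactivates prostaglandins, led the lower genes with 1467, 1315 and 1388 with vehicle and 1002, 793 and 983 with GW3965 (log2 fold change -0.59 ± 0.10 (SE), 95% interval -0.81 to -0.37). Arcn1, a coat protein of Golgi vesicles, read 3412, 2349.5 and 2620.3 with vehicle and 2049, 1929 and 1643 with GW3965. Rbpj, the DNA-binding partner of Notch, read 4446, 3507 and 3243 with vehicle and 3100.2, 2850.3 and 2361 with GW3965. Vwa1, an extracellular matrix protein, read 222, 163 and 194 with vehicle and 128, 95.9 and 81.1 with GW3965. The other 4 were Zfp345 and Zfp971, of the zinc finger family, the pseudogene Gm6457 and the transcribed pseudogene 2610005L07Rik, whose reads can be shared with close copies. In all 8 lower genes the groups did not overlap.

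**Figure D3:**
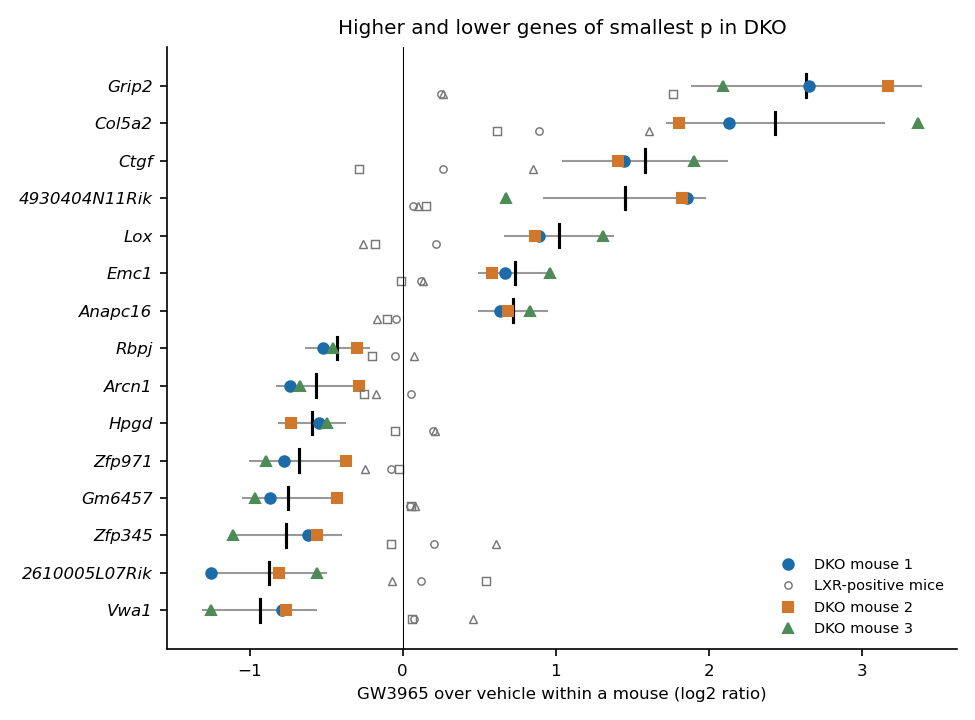
Log2 ratio of GW3965 over vehicle within each DKO mouse (filled symbols), the mean (black bar) and its 95% interval (grey line) for 7 of the 8 higher genes and the 8 lower genes of smallest p, with the 3 LXR-positive mice as open symbols. Filled symbols of all 3 mice lie on 1 side of 0 for all 15 genes, from 2.64 (Grip2) to -0.93 (Vwa1) in the mean.

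In LXR-positive cells 15 of these 16 genes had log2 fold changes from -0.12 (Arcn1) to 1.04 (Col5a2), none called. The smallest adjusted p for a difference between genotypes among these 15 was 0.11 (Anapc16), so no DKO response of these genes was separated from the LXR-positive one. The other DKO treatment groups, which received no GW3965, share the vehicle libraries as a comparison and are given as values. Grip2 read 141, 315 and 27.7 with acetylated LDL, for which the labels give no duration, and 486, 153 and 62.4 with the TLR4 ligand Kdo2-lipid A. Emc1 read 1023, 1273 and 785 and 1093, 1169.7 and 1034 in the same 2 groups, and Hpgd 809, 692 and 1223 and 9.25, 6.47 and 13.5. Of the 8 higher genes, 5 lay on average above vehicle with acetylated LDL and 7 with Kdo2-lipid A, and of the 8 lower genes, 8 and 5 lay below. All 3 libraries lay beyond the vehicle range on that side for 0 and 4 of the higher genes and for 3 and 3 of the lower. The shares of all genes that did so in these 2 groups were not counted, so these counts are not a result about the 16 genes. The genes were selected against these same vehicle libraries, so a lean to the same side is partly built in. Ctgf lay below vehicle on average in both, with 175, 206 and 27.1 and 154, 169 and 17.8.

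Which other ligand sensors the cells expressed was read per kilobase of GENCODE exon length, so that genes can be set side by side. In the DKO GW3965 libraries the glucocorticoid receptor Nr3c1 stood at 244 ± 21.4 normalized counts per kilobase (SD, n = 3) and the LXR partner Rxra at 175 ± 32.6. The REV-ERBβ gene Nr1d2 stood at 141 ± 13.4 and the adipogenic and macrophage receptor Pparg at 115 ± 25.1, and these 2 overlapped in their spread. Rora stood at 36.9 ± 5.33 and the aryl hydrocarbon receptor Ahr at 36.7 ± 10.2, which also overlapped. The bile acid receptor Nr1h4 had 0 reads in the 6 DKO libraries, the pregnane X receptor Nr1i2 5.00 and the hepatic receptor Hnf4a 1.00. Ppara had 17.0.

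Of 40 receptors and sensors, 30 were tested and 0 were called in DKO cells. Nr2f6, an orphan receptor that represses transcription, had the smallest p of the 30: it read 62.4, 74.2 and 83.4 with vehicle and 110.2, 150.2 and 124 with GW3965, a log2 fold change of 0.80 ± 0.17 (SE) with no overlap between groups (unadjusted p = 0.0015, adjusted p = 0.44). It shares 54.4% of its exon bases with Ocel1 on the opposite strand. The list's median was 0.051, and 2 of 30 were higher and 0 lower at an unadjusted p under 0.05.

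No target gene of these sensors passed limma's test in DKO cells, and DESeq2 called 1, Cyp1b1. Over 27 lists with 351 distinct tested genes, limma called 0 genes in DKO cells. At an unadjusted p under 0.05, 30 were higher (8.55%, 10 of them stromal markers) and 15 lower (4.27%), against 4.35% and 3.72% of all genes, and the median log2 fold change of 22 lists lay within 0.25 of 0. Of the pregnane X and constitutive androstane receptor targets, 11 of 18 were tested, with a median of 0.20. Of these, 1 was higher and 1 lower at an unadjusted p under 0.05. Alas1, the first enzyme of heme synthesis, read 635, 961 and 515 with vehicle and 750.2, 1067 and 788 with GW3965 (log2 fold change 0.33), while Abcb1b, a drug efflux pump, had a log2 fold change of -0.34. Por, the electron donor of cytochrome P450 enzymes, read 4107, 2747 and 2997 with vehicle and 3751, 3309 and 3097 with GW3965.
For farnesoid X receptor targets 3 of 10 were tested, too few to describe as a group. All 3 were below 0, with a median of -0.43 and 1 lower at an unadjusted p under 0.05. Slc10a1, a bile acid importer of liver, read 10.2, 28.5 and 23.4 with vehicle and 0, 0 and 25.3 with GW3965. Its values reach 0 in 2 libraries, and its adjusted p was 0.60.

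The 16 clock genes driven by RORs and REV-ERBs had a median of 0.025, with 1 higher and 1 lower at an unadjusted p under 0.05. Clock, a core activator of the circadian loop, read 1333, 1261 and 1333 with vehicle and 1077, 1123 and 972 with GW3965, a log2 fold change of -0.31 ± 0.092 (SE) with no overlap between groups (adjusted p = 0.55). Bhlhe40, a repressor in the same loop, had a log2 fold change of 0.58. The 18 tested PPAR targets had a median of 0.037. Cd36, a scavenger receptor for oxidized lipid, read 15107, 11684 and 6302 with vehicle and 9413, 13926 and 8403 with GW3965. Fabp5, a fatty acid carrier, read 7281, 8089 and 7402 with vehicle and 8239.8, 8427 and 9189.6 with GW3965. Its groups did not overlap, as for 6.45% of all genes on the higher side. Ech1, an enzyme of fatty acid oxidation, was higher in all 3 mice with no overlap between groups (174, 179 and 181 with vehicle and 232, 247 and 252 with GW3965, adjusted p = 0.51). Acadm, another such enzyme, had a log2 fold change of -0.45.
Retinoid receptor targets (5 of 12 tested, median 0.14) and vitamin D receptor targets (3 of 6, median 0.45) had 0 members at an unadjusted p under 0.05. The 3 vitamin D receptor targets are likewise too few to describe as a group. Dhrs3, a retinal reductase, read 4575, 4785 and 4197 with vehicle and 4903, 5155 and 4869 with GW3965, with no overlap between groups. Spp1, which encodes osteopontin, read 25361, 44815 and 8175 with vehicle and 20596, 53261 and 15795 with GW3965, lower in mouse 1 and higher in mice 2 and 3. Glucocorticoid receptor targets had a median of 0.045 over 15 genes, with Pik3r1, the regulatory subunit of phosphoinositide 3-kinase, at 3367, 2899.7 and 3849.8 with vehicle and 2930.3, 2588 and 3122 with GW3965 and Rgs2, a regulator of G-protein signalling, at 1219, 1558 and 1430.1 with vehicle and 1213, 1438 and 1620.0 with GW3965. Among 5 tested aryl hydrocarbon receptor targets the median was -0.064. Tiparp, a feedback repressor of that receptor, read 518, 467 and 542 with vehicle and 416, 424 and 514 with GW3965, while Cyp1b1, which fibroblasts also express, read 219, 296 and 15.8 with vehicle and 356, 607 and 82.3 with GW3965 with the low mouse 3 seen for the matrix genes (limma adjusted p = 0.44, DESeq2 adjusted p = 0.011).

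**Figure D4:**
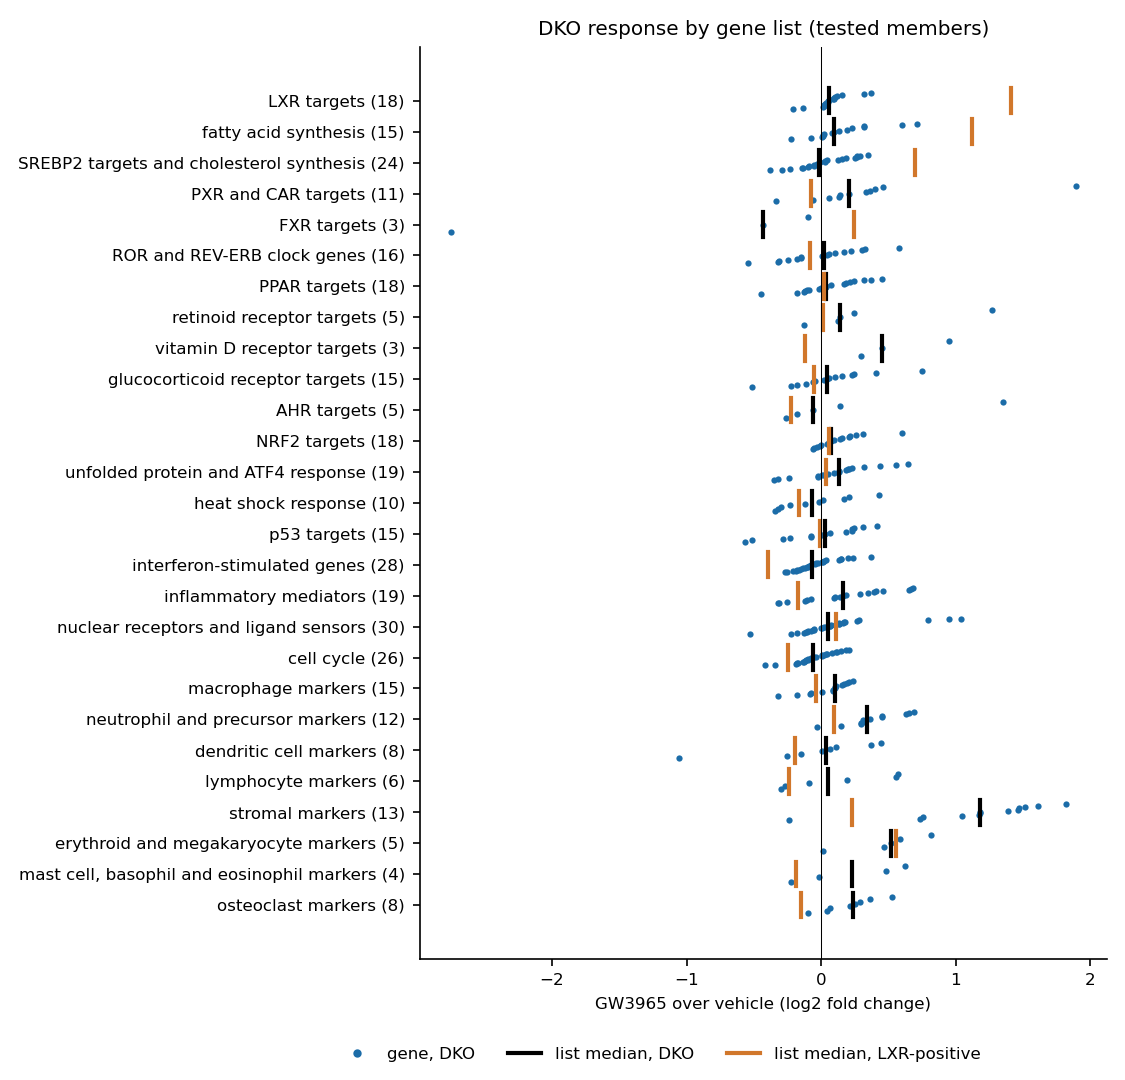
Log2 fold change with GW3965 in DKO cells for each tested gene (points) of 27 lists, with the list's median in DKO (black) and LXR-positive cells (orange) and the number of tested genes in brackets. LXR target, fatty acid and SREBP2 lists have orange bars at 1.41, 1.12 and 0.70 and black bars near 0, and the stromal list has its black bar at 1.18.

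Stress programmes that an off-target compound could raise were examined the same way. The 18 NRF2 targets had a median of 0.073, with 2 higher and 0 lower at an unadjusted p under 0.05. Sqstm1, an autophagy receptor, read 4436, 4078 and 5147 with vehicle and 5365, 5406 and 6088 with GW3965, above vehicle in all 3 mice with no overlap between groups (log2 fold change 0.31, adjusted p = 0.57). Ftl1, the ferritin light chain, read 21522, 22995 and 27403 with vehicle and 30912, 25434 and 29769 with GW3965. The 19 tested genes of the unfolded protein and ATF4 responses had a median of 0.13, with 1 higher and 3 lower. Slc3a2, the heavy chain of amino acid transporters, was the higher one at 1126, 1254 and 1311 with vehicle and 2061, 2049 and 1672 with GW3965, with no overlap between groups (log2 fold change 0.64 ± 0.12 (SE), limma adjusted p = 0.42, DESeq2 adjusted p = 0.0025). Among chaperones of the endoplasmic reticulum, Hsp90b1 read 16208, 15162 and 16053 with vehicle and 9712, 14240.1 and 14689 with GW3965, with no overlap between groups. Hspa5 read 8151, 9878 and 12362 with vehicle and 8055, 11332 and 11330.2 with GW3965, with overlapping groups.
Heat shock genes had a median of -0.068 over 10 genes and p53 targets of 0.025 over 15. Hspa8, a constitutive chaperone, read 28302, 28107 and 27136 with vehicle and 30999, 33523 and 31988 with GW3965, with no overlap between groups. Mdm2, the ligase that degrades p53, read 2281, 2589 and 1938 with vehicle and 2125, 2587 and 1776 with GW3965. Pmaip1, a pro-apoptotic p53 target, was lower in all 3 mice at 224, 169 and 149 with vehicle and 118, 118 and 124 with GW3965 (adjusted p = 0.53). Its groups did not overlap either. Over all genes tested, groups were apart with GW3965 higher for 6.45% and lower for 7.16%.

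No immune gene on the lists passed limma's test in DKO cells. The 28 interferon-stimulated genes had a median of -0.071 in DKO and -0.39 in LXR-positive cells, with 1 higher and 2 lower in DKO cells at an unadjusted p under 0.05. Ifit2, an interferon-induced inhibitor of translation, read 2467, 1493 and 3569 with vehicle and 2245, 1115 and 2998 with GW3965, lower within each mouse. Of 19 tested inflammatory mediators, with a median of 0.16, 3 were higher and 0 lower. Saa3, an acute phase protein, read 71.6, 559 and 351 with vehicle and 131, 198 and 2249.6 with GW3965, higher in mice 1 and 3 and lower in mouse 2. Cell cycle genes had a median of -0.063 over 26 genes, and Mki67, the proliferation marker, read 8393, 9126 and 3535 with vehicle and 6048, 9424 and 3662 with GW3965. Macrophage markers had a median of 0.10 over 15 entries, and Trem2, a lipid-sensing receptor, read 3463, 3504 and 2638 with vehicle and 3722, 4136 and 3389.6 with GW3965.

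Markers of stromal cells had the highest median of the 27 lists. Of 14 stromal markers 13 were tested (Lum was not), 0 were called, and 10 were higher and 0 lower at an unadjusted p under 0.05, against 4.35% of all genes higher. The median log2 fold change was 1.18, and 0.74, 0.93 and 2.03 within mice 1, 2 and 3. Of the 13, 12 lay above 0 and 1 below, at -0.24. Fn1, fibronectin, read 1102, 2283 and 259.7 with vehicle and 1819.6, 3448 and 921 with GW3965. Col1a1, a chain of type I collagen, read 773, 1672 and 101 with vehicle and 1841, 3462 and 585 with GW3965. Sparc, a collagen-binding matrix protein, read 433, 669 and 51.8 with vehicle and 798, 1276 and 267 with GW3965, a log2 fold change of 1.38 ± 0.27 (SE) (adjusted p = 0.44). Each was higher within every mouse, but the vehicle values of mice 1 and 2 exceeded the GW3965 value of mouse 3, and the groups overlapped in all 13. Without the mouse block 0 of the 13 were at an unadjusted p under 0.05, with the same median, and without DKO mouse 3 the median was 0.91, with 8 of 13 at that p.
The list's summed level was 4195, 7268 and 606 with vehicle and 7601, 13476 and 2866 with GW3965, ratios of 1.81, 1.85 and 4.73. In LXR-positive cells it was 1627, 584 and 325 and 1848, 773 and 432, ratios of 1.14, 1.32 and 1.33. None of the 13 was called in limma's test between genotypes (smallest adjusted p = 0.64). At an unadjusted p under 0.05 in that test stood 6 of the 13, against 1051 of 16116 genes tested. The list's median difference, DKO minus LXR-positive, was 0.95. The DKO libraries treated with acetylated LDL gave 3359, 7921 and 626 and those with Kdo2-lipid A 3211, 3638 and 623, so the GW3965 library was the highest of the 4 in each DKO mouse. No member was at 0 in all 6 libraries. In cultures measured in bulk, more stromal cells and more matrix RNA per cell cannot be told apart.

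Neutrophil and precursor markers were higher by less. Of 12 tested, 11 were higher in all 3 mice, 3 were higher at an unadjusted p under 0.05 and 0 were called, with a median of 0.34. Over all genes 17.6% were higher in all 3 mice and 4.35% at that p. Their summed level was 6492, 9456 and 7559.8 with vehicle and 8114, 12013 and 9216 with GW3965. S100a9, a calcium-binding alarmin, read 3207, 4244 and 3468 with vehicle and 3497, 5281 and 4707 with GW3965. Ctsg, a granule protease, read 40.6, 64.1 and 37.0 with vehicle and 74.4, 110.2 and 50.7 with GW3965. Lists for lymphocytes (6 of 13 tested, median 0.052), dendritic cells (8 of 10, 0.036), mast cells with basophils and eosinophils (4 of 10, 0.23), osteoclasts (8 of 10, 0.24) and erythroid cells with megakaryocytes (5 of 13, 0.52) had 1 gene between them at an unadjusted p under 0.05. It was Itga2b, the platelet integrin, at 98.7, 81.9 and 34.7 with vehicle and 116, 139.8 and 51.9 with GW3965.
The entry for 18S ribosomal RNA (Rn18s-rs5) read 13642, 40598 and 27909.7 with vehicle and 75596, 152948 and 42869 with GW3965, higher in each mouse. In DKO cells it read 73630.4, 89439 and 24696 with acetylated LDL and 102214, 78168 and 35066 with Kdo2-lipid A. In LXR-positive cells it read 20291, 13127 and 16153 with vehicle and 24060.5, 20674 and 16385 with GW3965, also higher in each mouse. The libraries were made from total RNA. With every library thinned to 6448579 reads, limma again called 0 genes in DKO cells. Whether ribosomal RNA or stromal or neutrophil transcripts had a part in the other differences was not tested.

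**Figure D5:**
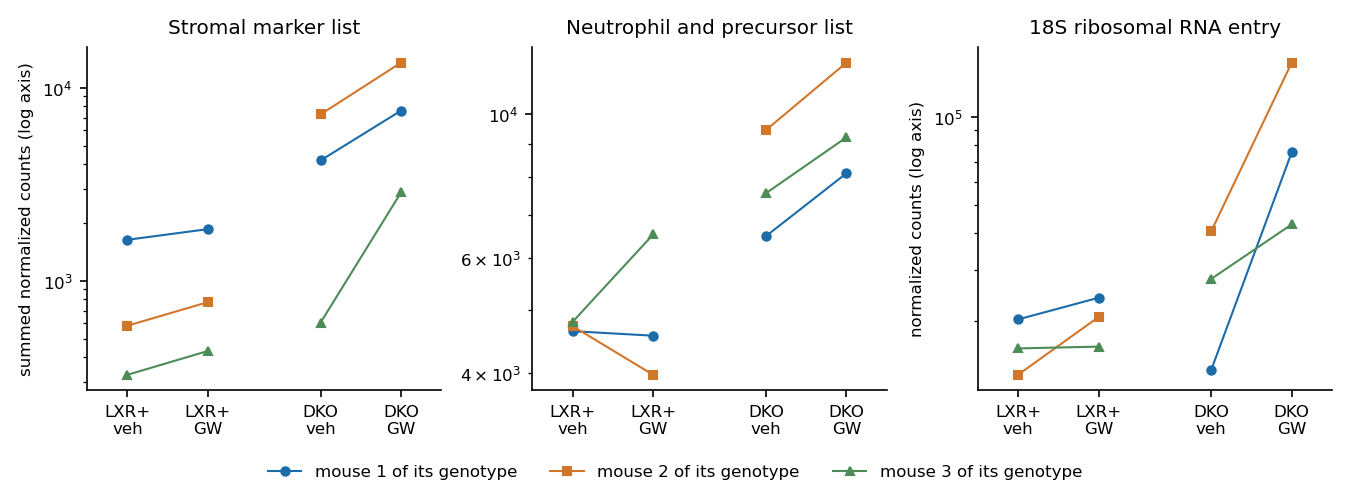
Summed normalized counts of the stromal and the neutrophil lists, and the count of the 18S ribosomal RNA entry, on log axes in the 12 vehicle (veh) and GW3965 (GW) libraries, with a line per mouse and LXR+ for LXR-positive. All 3 quantities are higher with GW3965 in each DKO mouse, the stromal sum by 1.81, 1.85 and 4.73 times. In each LXR-positive mouse the stromal sum (1.14, 1.32 and 1.33 times) and the 18S entry are also higher. The neutrophil sum there changes by 0.98, 0.84 and 1.36 times.

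DESeq2 with the mouse block was the setting that gave calls in number, 51 genes higher and 16 lower in DKO cells. Of the 67, 66 had the same direction in all 3 mice, the exception being Gm28037 with 0 in both libraries of mouse 3. Over all genes tested, 17.6% were higher and 16.7% lower in all 3 mice. The 67 were selected by a test on these same within-mouse differences, so their agreement is a description. They were 48 protein-coding genes, 11 pseudogenes, 6 short or ribosomal RNAs and 2 others, and the pseudogenes' reads can be shared with their parent genes. The 67 held 15 of the 16 genes of smallest limma p described above. They also held 8 genes of the 27 lists, namely Slc3a2, Cyp1b1 and 6 stromal markers (Sparc, Col3a1, Fn1, Col6a1, Postn and Col5a1). Further matrix genes that were higher among the 67, named after their values were seen, were Col5a2, Bgn, Timp3, Lox, Aebp1, Serpinh1, Col6a2, Thbs2 and Tnc. The matrix protein gene Vwa1 was among the lower ones, with a DESeq2 log2 fold change of -0.93. Bgn, a matrix proteoglycan, read 359.9, 1033 and 47.3 with vehicle and 959, 1545 and 315 with GW3965, with a DESeq2 log2 fold change of 1.53. Others carried different roles: Rack1, a ribosomal scaffold, read 1656, 3662 and 4008 with vehicle and 5249.8, 6117 and 6023 with GW3965. Man2b1, a lysosomal mannosidase, read 6189, 7853 and 9091 with vehicle and 10073, 11003 and 12445 with GW3965. Both were likewise named after their values were seen, and both had non-overlapping groups. Their limma adjusted p-values were 0.40 and 0.44. Without the mouse block DESeq2 called 26 genes, 12 higher and 14 lower.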

How the data were processed

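RNA-seq was measured in macrophages of 3 DKO and 3 LXR-positive mice. Per the labels' protocols, libraries were made from 500 ng of total RNA of single mice with a stranded total RNA kit. kallisto, DESeq2 and the build GRCm38 are named in the submitters' processing notes. Neither versions nor annotation nor strand setting were stated there. The deposited signal values are the authors' normalized counts of 47372 genes, counts scaled by each library's size factor, and all values came out as whole reads within 0.01 read in 24 libraries. The authors' deposited table also holds log2 fold changes for the genotype difference and its adjusted p-values.

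From these values log2(value + 1) was fitted with limma-trend (limma 3.58.1, R 4.3.3) over 12 libraries, with the mouse as a block (residual df 4), for 16116 genes at 10 or more in at least 3 libraries. Adjusted p-values are Benjamini-Hochberg over all genes tested, and the threshold was 0.05. The fold changes are on the log2(value + 1) scale and understate the change of low genes. The pairing comes from the series design, which gives each mouse all treatments. Over genes, deviations from group means correlated at 0.011 to 0.45 within DKO mice and -0.49 to 0.14 between them. Such deviations cancel within a group, so part of this contrast is built in. The vehicle library of DKO mouse 1 gave 0.011 with its own GW3965 library and 0.14 with that of mouse 2, so the counts did not single out that pair. The recovered reads were tested with edgeR 4.0.16 and DESeq2 1.42.0. Exon lengths and overlaps came from GENCODE M21, and promoter windows from RefSeq.

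Named genes were the 8 higher and 8 lower genes of smallest DKO p with a mean of at least 100, the LXR targets with Fasn, Fads2, Insig1 and Nr1h2, and, in each other list, the 2 tested members of highest DKO mean and the one of smallest p. To these came genes called in DKO cells or in the genotype difference (up to 30 each) and, of genes called in LXR-positive cells, the 3 of highest and the 3 of lowest DKO response. Abcb1b, Acadm, Bhlhe40, Mid1ip1, Nr1d2, Pparg, Rora, Ahr, Rxra, Col3a1, Col6a1, Col5a1, Postn, Gm28037 and Rn18s-rs5 were named after their values were seen. Scd4, Nr1h4, Nr1i2, Hnf4a, Ppara and Lum are also outside the rule and were named with their values known. So were genes named only for a call in an alternative setting. Some genes that this rule names are not reported here. The comparison and the lists were chosen with earlier results of these data known. Alternatives were the block, libraries in the fit, pseudocount, filter, normalization, tool, depth and leaving out each mouse.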

Additional observations from a re-analysis of the deposited data

Results flagged for a closer look

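For 19 genes the response to GW3965 differed between DKO and LXR-positive macrophages in limma's test of the difference itself, given here as the DKO minus the LXR-positive log2 fold change. Among desaturases it was -6.48 for Scd1, -5.59 for Scd2 and -3.68 for Fads2. For other genes of fatty acid synthesis and activation it was -2.86 for Fasn, -1.51 for Acaca, -1.92 for Acsl3 and -1.61 for Acsl4. The sterol regulators Srebf1 and Insig1 gave -2.74 and -1.52, and the cholesterol exporters Abcg1 and Abca1 gave -2.67 and -2.05. Mylip gave -1.68, the apolipoprotein Apoc2 -1.63, Pank1 -1.69, Arl4c -1.35, Eepd1 -1.3 and AB124611 -1.06. Utp14b gave -2.08, and it shares 244 exon bases on the same strand with Acsl3. Apoc2 shares 79.5% of its exon bases with Gm44805 on the same strand. In DKO cells none of these 18 genes passed the test.

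Gm17383 gave 5.32, the single difference in the other direction, with 0 in all 3 LXR-positive GW3965 libraries, so that this fitted value depends on the pseudocount.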

How the results depend on the processing

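The count of 0 genes in DKO cells held with only the 6 libraries, all 24 libraries, pseudocounts of 0.5 and 8, no filter, a filter at 50, quantile normalization, thinned reads and edgeR. The count also held with edgeR without the block, a setting chosen after seeing the data. In limma without the mouse block it was 1 (Zfp708, adjusted p = 0.037), with DESeq2 67, and with DESeq2 without the block, also chosen after seeing the data, 26. Leaving out 1 mouse gave 0 to 5 genes, with 1 (CAAA01205117.1) without DKO mouse 1, 5 (Gm10163, Rn18s-rs5, Gm13509, Stxbp3-ps and 4930404N11Rik) without DKO mouse 3, and 2 (Grip2 and Zfp708) without LXR-positive mouse 2. The 52 genes of LXR-positive cells became 17 with only the 6 libraries, 90 with all 24, 110 with DESeq2 and 87 with DESeq2 without the block, and 24 to 53 on leaving out a mouse, the lowest without LXR-positive mouse 1. The 19 differences became 32, 66 and 55 with all 24 libraries, DESeq2 and DESeq2 without the block, and 11 to 19 on leaving out a mouse (11 without LXR-positive mouse 1, 12 without DKO mouse 2). Of these 19 genes, 10 were called in every setting and 0 changed sign. The call was lost in 1 setting each for Fads2 and Fasn, 4 for Arl4c, 5 for AB124611, 6 each for Apoc2 and Eepd1, 7 each for Acsl3 and Pank1 and 13 for Gm17383. With the mouse pairing removed, limma gave 43 genes in LXR-positive cells and 19 differences. For 118 named genes, 2133 of 2235 DKO values over 19 settings kept their direction and their side of the threshold, 29 values of 20 genes became calls, and 73 values of 39 genes changed sign with no call in either setting. The cause of these changes was not tested. With 3 mice and residual df of 4, DKO changes inside the intervals given above could not be told from 0. Larger changes could also miss the adjusted threshold.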
